A study of Homo sapiens with 14 samples.

Results

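Mitosis genes encode the proteins that carry a cell from the end of G2 through chromosome segregation to the parting of the daughter cells. A set of 42 was taken by gene symbol from the 11963 genes that had a probe set with 1 symbol on the array. It held 8 genes of the cyclin-dependent kinase module, 5 other mitotic kinases, 5 genes of the spindle checkpoint and 4 of the anaphase-promoting complex and sister chromatid separation. It also held 8 spindle motors and microtubule proteins, 5 genes of the centromere, kinetochore and chromosomal passenger complex, 6 of chromosome structure, and the transcription factor FOXM1. The genes are named by symbol, with no threshold on a measured value.

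The cells were Kasumi-1, an established human line from an acute myeloid leukaemia, which expresses the AML1-ETO fusion of RUNX1 with RUNX1T1. Total RNA was taken 96 h after transfection, or from cells left untransfected, and measured on 14 single-colour arrays in 6 groups of the same line and medium. Cells that received siRNA against AML1-ETO by Amaxa nucleofection, an electrical method, gave 3 arrays, and those that received it by the lipid reagent siLentFect gave 3. The control siRNA against firefly luciferase, a gene that human cells lack, gave 2 arrays by nucleofection and 3 by lipid. Nucleofection with no siRNA gave 1 array and untransfected cells gave 2. The siRNA concentration was 1.5 µM with nucleofection and 240 nM with lipid, so dose and method cannot be told apart. Nothing in the labels says whether replicates were grown separately, so each p-value reflects the spread between these arrays alone, and that spread may be technical.

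Entry into mitosis is driven by CDK1 bound to A- and B-type cyclins and switched on by CDC25 phosphatases. PLK1 and the Aurora kinases build the spindle, and the spindle checkpoint holds the anaphase-promoting complex inactive until every kinetochore is attached. CDC20 then activates that complex, which marks securin (PTTG1) and cyclin B for destruction and so frees separase (ESPL1) to part the sister chromatids. Most of these transcripts are made in G2 and M phase, so in a mixed culture their levels follow the share of cycling cells as well as the level per cell. In these bulk samples fewer cells in mitosis and less RNA per cell cannot be told apart. Transcription of the group is known to depend on a short promoter element called CHR, read by the DREAM complex and by MuvB with B-MYB or FOXM1, and on CCAAT boxes, bound by NF-Y.

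Values are given as signal, the authors' linear intensity per probe set after scaling every array to the same mean, and as log2 differences between group means with intensities under 20 raised to 20. Each gene was read from its brightest probe set, and levels of different genes are not compared, because probe sets differ in affinity. A gene was called when limma's Benjamini-Hochberg adjusted p, taken over all 7178 genes tested, was below 0.05. Of the 42 members, 40 lay among the upper 60% of genes by mean signal and were tested. The kinesin KIF23, which works in cytokinesis, had signals between 14.2 and 28.9, and INCENP, the scaffold of the passenger complex, between 7.72 and 43.5, and both stayed below that filter. None of the 40 tested members had a group wholly at the floor of 20.

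RUNX1T1, whose sequence forms the 3′ part of the fusion transcript, served as the check of the knockdown. Its signal was 318, 328 and 251 with AML1-ETO siRNA by nucleofection, against 644 and 763 with luciferase siRNA (log2 difference −1.24, adjusted p 0.00288 in limma). With lipid it was 399.7, 426 and 502, against 539.7, 560.3 and 567 (log2 difference −0.34, adjusted p 0.999), so the groups did not overlap but the fall was smaller and did not pass the test. Of the 7 markers listed for Kasumi-1, RUNX1T1 among them, KIT had between 1617 and 2297 and MPO between 4784 and 7572. SPI1 had 63.0 to 196, PTPRC 78.3 to 385 and CD34 29.1 to 79.5. CD38 had 6.97 to 59.7 and lay below the floor on 3 arrays. The 8 measured genes listed as markers of cells outside the blood include PECAM1, which leukocytes also express. They summed to between 269 and 355 on the 6 nucleofection arrays and 418 to 504 on the 6 lipid arrays. In untransfected cells the sums were 439.5 and 463. EPCAM was the brightest of them, while ALB had 1.81 to 20.7 and COL1A2 1.99 to 42.3 over the 14 arrays. The 5 lymphoid markers summed to between 131 and 184 with nucleofection, 90.0 to 155 with lipid and 71.1 to 91.3 in untransfected cells, and the 3 erythroid and megakaryocytic markers to between 92.3 and 156 on all arrays. None of these markers was listed at 0, and their part in the results below was not tested.

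Some arrays stood apart. AML1-ETO lipid replicate 3, whose scale factor of 0.488 was the smallest, had 38 of the 40 tested members above their own mean over the 14 arrays. It held the highest signal of 27.5% of members and of 23.7% of all genes tested. AML1-ETO nucleofection replicate 3 held the lowest signal of 37.5% of members and of 16.3% of all genes. Ribosomal RNA probe sets averaged between 7.01 and 10.8 on the log2 scale in nucleofected cells, 4.89 to 6.19 in lipid-treated cells, and 5.67 and 6.17 in untransfected cells. The log2 ratio of the 3′ to the 5′ GAPDH probe set, a measure of RNA integrity, was −0.18 to −0.11 with AML1-ETO siRNA by nucleofection and 0.03 and 0.25 with luciferase siRNA by nucleofection, and −0.04 without siRNA. It was −0.38 to −0.17 on the lipid arrays, and −0.21 and −0.19 in untransfected cells. The same ratio for ACTB was 0.29 to 0.46 with AML1-ETO siRNA and 0.38 and 0.84 with luciferase siRNA by nucleofection, and 0.36 without siRNA. It was 0.30 to 0.59 on the lipid arrays, and 0.50 and 0.66 in untransfected cells. The ribosomal RNA signal thus differed by delivery method. The GAPDH ratio overlapped between the methods but differed by siRNA under nucleofection, and the ACTB ratio overlapped between methods and siRNAs. The part of these measures in the results below was not tested.

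The promoters of the group share sequence features that the choice of genes did not use. RefSeq windows on GRCh38.p14, from 250 bases before to 50 after the annotated start, were available for 34 of the 42 genes, 45 windows in all. Named without a window here are FOXM1, TTK, BIRC5, TPX2, PBK, AURKA, BUB3 and UBE2C. On either strand, the CHR form TTTGAA was found in 55.6% of member windows, against 15.2% of all 35116 windows, and the form TTTAAA in 33.3% against 12.2%. CCAAT was found in 73.3% against 34.6%, and a CHR form together with CCAAT in 57.8% against 9.27%. TTTAAA is its own reverse complement, and matches of different motifs can share bases. A match is a run of letters and not evidence of binding. Several windows of 1 gene can overlap, so they are not independent of each other.

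Of 8 members that passed the test in a comparison below, 6 had a window and 4 of these held both a CHR form and CCAAT in one window. Over all 34 members with a window, 23 held both in one window (67.6%, against 11.2% of all genes). Those 4 windows, of the called members CCNB2, PTTG1, PRC1 and CENPF, are shown. Letters run 5′ to 3′ on the gene's strand, and capitals mark either CHR form and the CCAAT box, or the reverse complement of one.
CCNB2 promoter, chr15:59104896-59105195, plus strand: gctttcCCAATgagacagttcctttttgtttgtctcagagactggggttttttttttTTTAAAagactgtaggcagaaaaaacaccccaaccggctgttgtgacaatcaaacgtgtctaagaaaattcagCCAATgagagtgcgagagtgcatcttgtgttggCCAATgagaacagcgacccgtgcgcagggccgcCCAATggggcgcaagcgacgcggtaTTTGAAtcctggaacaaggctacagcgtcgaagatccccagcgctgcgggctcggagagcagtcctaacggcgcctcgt
PTTG1 promoter, chr5:160421605-160421904, plus strand: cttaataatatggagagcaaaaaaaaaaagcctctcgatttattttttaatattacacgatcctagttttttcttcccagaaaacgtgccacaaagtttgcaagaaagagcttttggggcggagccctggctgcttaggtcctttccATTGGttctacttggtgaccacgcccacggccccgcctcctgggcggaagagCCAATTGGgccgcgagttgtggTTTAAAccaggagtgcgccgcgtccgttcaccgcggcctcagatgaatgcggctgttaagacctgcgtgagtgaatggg
PRC1 promoter, chr15:90994486-90994785, minus strand: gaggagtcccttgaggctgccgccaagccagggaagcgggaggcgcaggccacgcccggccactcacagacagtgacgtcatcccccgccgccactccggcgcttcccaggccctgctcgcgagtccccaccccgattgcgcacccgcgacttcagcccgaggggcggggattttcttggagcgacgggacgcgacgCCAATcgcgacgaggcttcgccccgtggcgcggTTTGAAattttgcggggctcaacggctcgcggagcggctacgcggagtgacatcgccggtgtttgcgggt
CENPF promoter, chr1:214602945-214603244, plus strand: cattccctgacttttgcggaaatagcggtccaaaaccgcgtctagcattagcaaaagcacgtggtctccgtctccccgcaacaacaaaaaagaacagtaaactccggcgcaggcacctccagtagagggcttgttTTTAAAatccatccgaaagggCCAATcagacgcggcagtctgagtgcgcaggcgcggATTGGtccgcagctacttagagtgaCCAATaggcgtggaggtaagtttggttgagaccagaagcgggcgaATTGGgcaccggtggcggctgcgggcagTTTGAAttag
In PTTG1 a CCAAT and its reverse complement share 2 bases, and both are marked. In PRC1 the CCAAT began 53 bases and the TTTGAA 20 bases before the start. In CENPF the TTTAAA began 115 bases before the start and the TTTGAA 40 bases after it. No window of CDC25B or SMC4 held both kinds of motif.

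Over all member windows the TTTGAA matches lay closest to the start. Of 30 matches, 22 began within 50 bases of the start, with a median position of −29. The 66 CCAAT matches had a median position of −86, and 62 of them began upstream of −30. The counts by distance from the start show the same order of the motifs.

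**Figure D1:**
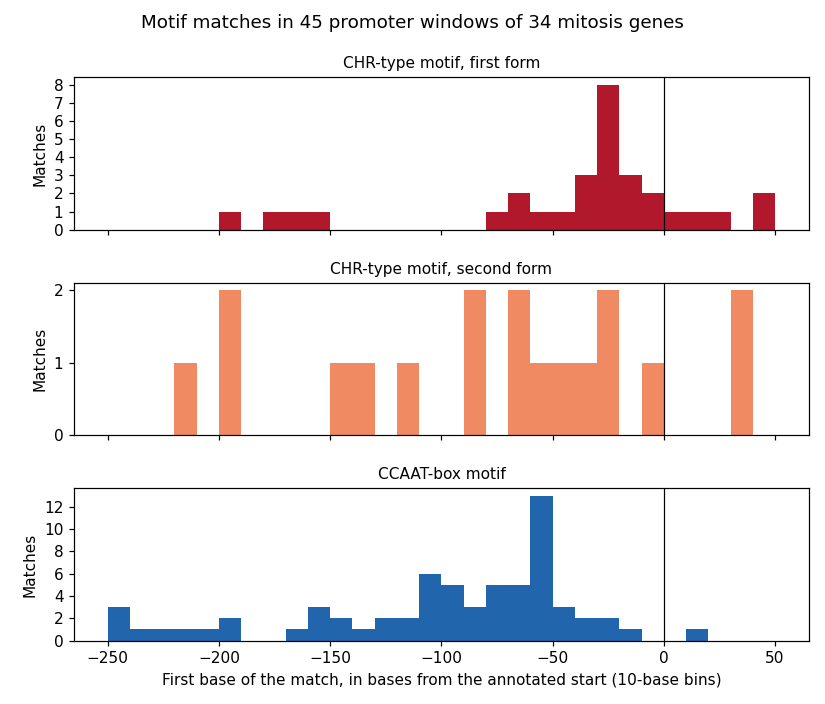
Matches of 3 promoter motifs in 45 windows of 34 mitosis genes, counted in bins of 10 bases (y axis, number of matches) by distance of the first base from the annotated start (x axis, bases, with the start as a line). The first CHR form, TTTGAA, has its highest bin just upstream of the start, and CCAAT matches lie further upstream, with a median of −86 bases.

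Each gene was read from 1 probe set. For the kinase CDK1, its cyclins, its activating phosphatases and the CKS proteins that bind it, these were 210559_s_at for CDK1, 213226_at for CCNA2, 214710_s_at for CCNB1, 202705_at for CCNB2, 201853_s_at for CDC25B, 205167_s_at for CDC25C, 201897_s_at for CKS1B and 204170_s_at for CKS2. The other mitotic kinases were read from 202240_at for PLK1, 204092_s_at for AURKA, 209464_at for AURKB, 204641_at for NEK2 and 219148_at for PBK. The spindle checkpoint, which delays anaphase, was read from 209642_at for BUB1, 203755_at for BUB1B, 201457_x_at for BUB3, 203362_s_at for MAD2L1 and 204822_at for TTK. The genes that end the checkpoint's arrest and part the sister chromatids were read from 202870_s_at for CDC20, 202954_at for UBE2C, 203554_x_at for PTTG1 and 38158_at for ESPL1. The kinesins and microtubule-binding proteins were read from 204444_at for KIF11, 218755_at for KIF20A, 204709_s_at for KIF23, 209408_at for KIF2C, 218355_at for KIF4A, 210052_s_at for TPX2, 218009_s_at for PRC1 and 218039_at for NUSAP1. Centromere, kinetochore and passenger proteins were read from 210821_x_at for CENPA, 205046_at for CENPE, 207828_s_at for CENPF, 202095_s_at for BIRC5 and 219769_at for INCENP. Topoisomerase, the condensin subunits and Ki-67 were read from 201292_at for TOP2A, 218662_s_at for NCAPG, 212949_at for NCAPH, 204240_s_at for SMC2, 201663_s_at for SMC4 and 212020_s_at for MKI67. FOXM1 was read from 202580_x_at.

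Across the arrays the 40 tested members varied little within groups. Their median residual SD was 0.169 on the log2 scale, against 0.240 for all genes tested. The tightest were the ubiquitin-conjugating enzyme UBE2C, which works with the anaphase-promoting complex (SD 0.068), PTTG1 (0.090) and ESPL1 (0.103). UBE2C had signals of 292, 327 and 302 with AML1-ETO siRNA by nucleofection, 344 and 386 with luciferase siRNA by nucleofection, and 336 without siRNA. It had 367, 355 and 368 with AML1-ETO siRNA by lipid, 357, 339 and 361 with luciferase siRNA by lipid, and 348 and 364 in untransfected cells. The 3 lowest of these 14 values were the 3 AML1-ETO nucleofection arrays. The map of deviations by array shows that group mostly in blue, with NEK2 on AML1-ETO lipid replicate 3 (signal 130.2, against 46.9 to 79.4 on the other arrays) as the brightest red cell.

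**Figure D2:**
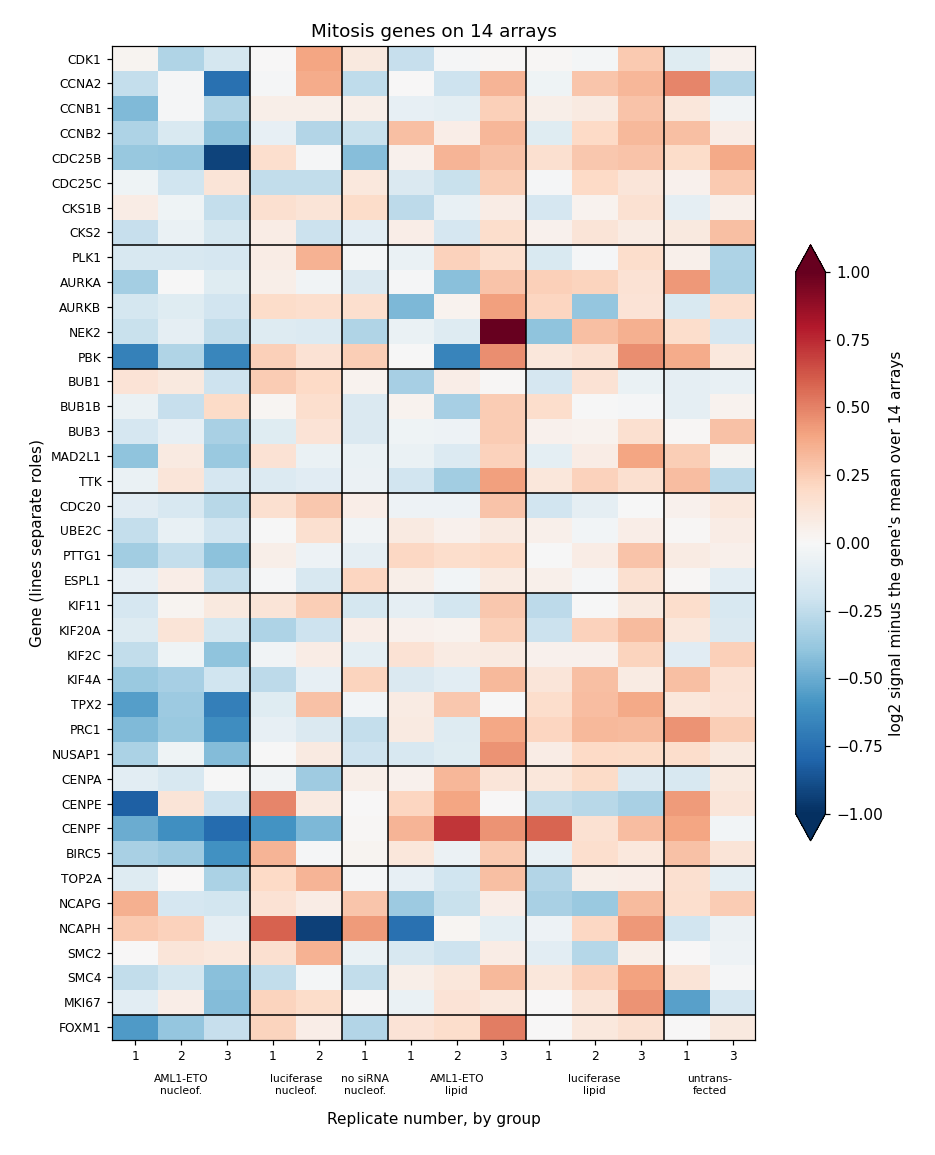
Log2 signal of each tested mitosis gene (rows, grouped by role) on each of 14 arrays (columns, grouped by siRNA and delivery), as the deviation from the gene's own mean over the 14 arrays (colour, log2 units, truncated at −1 and 1). AML1-ETO nucleofection arrays are mostly blue, CENPF is blue on all 5 nucleofection arrays with siRNA, and AML1-ETO lipid replicate 3 is above the mean for 38 of 40 genes.

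AML1-ETO siRNA against luciferase siRNA by nucleofection asks how the genes responded where RUNX1T1 fell most. In this comparison 34 of the 40 tested mitosis genes had a lower mean (85%, against 63.2% of all genes), and their median log2 difference was −0.23, against −0.11 for all genes. None of the 40 passed the test, while 2.62% of all genes did and 0.989% passed with a fall. At an unadjusted p below 0.05 there were 10 members, all lower (25%, against 12.2% of all genes lower). In 21 members every AML1-ETO array lay below both luciferase arrays (52.5%, against 25.3% of all genes). CDC25C and KIF20A went the other way, with every AML1-ETO array above both luciferase arrays.

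Those with the smallest p were TPX2, BIRC5 and CDC25B. TPX2, which activates Aurora A and nucleates spindle microtubules, had 226, 258 and 206 with AML1-ETO siRNA, against 304 and 405 with luciferase siRNA. Its log2 difference was −0.62 ± 0.17 (SE; 95% interval −0.98 to −0.25), with an adjusted p of 0.0778. The nucleofection array without siRNA gave 325, above every AML1-ETO array and between the luciferase arrays. Without luciferase nucleofection replicate 2 the TPX2 difference was −0.41. BIRC5, survivin of the passenger complex, had 219, 214 and 181, against 348 and 272 (−0.59 ± 0.17, adjusted p 0.0897), and 279 without siRNA. With the mean over its probe sets in place of the brightest, the BIRC5 difference was −0.21 (adjusted p 0.469). CDC25B, the phosphatase that starts CDK1 activation, had 157, 157 and 108, against 230.3 and 204 (−0.64 ± 0.19, adjusted p 0.0902). Here the array without siRNA gave 153, a value among those with AML1-ETO siRNA.

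FOXM1, the transcription factor that drives G2 and M phase genes, had 144, 163 and 182 with AML1-ETO siRNA, against 248 and 222 with luciferase siRNA (log2 difference −0.53 ± 0.16, adjusted p 0.111), and 173 without siRNA. PBK, a mitotic kinase, had 40.5, 52.4 and 41.1, against 76.5 and 71.6, and 76.9 without siRNA (−0.74 ± 0.27, adjusted p 0.162). In both genes the 3 AML1-ETO arrays lay below the 2 luciferase arrays. CDC20 had 250.5, 243 and 224, against 303 and 328 (−0.40, adjusted p 0.182). PLK1 had 81.9, 81.9 and 81.6, against 96.4 and 117 (−0.37, adjusted p 0.263). PTTG1, the securin, had 666, 719.7 and 639.8, against 882 and 821 (−0.34, adjusted p 0.227), with 796 without siRNA. It was read from 203554_x_at, a type of probe set that may also bind related transcripts, so its values are uncertain in that respect, as are those of BUB3, CENPA and FOXM1 from probe sets of the same type. TOP2A, the topoisomerase that untangles sister chromatids, had 257, 283 and 226, against 323 and 356 (−0.41, adjusted p 0.264). The array without siRNA, at 279.6, lay within the AML1-ETO range. CENPE, a kinetochore motor, had 35.4, 68.2 and 54.2, against 87.6 and 66.4 (−0.59, adjusted p 0.220), and its groups overlapped.

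By role, the median log2 difference of this comparison was below 0 in all 8 roles, from −0.16 in the 6 chromosome structure genes to −0.53 for FOXM1, as it also was after quantile normalisation and after centring each array on its median. It was −0.26 in the 8 genes of the cyclin-dependent kinase module, where CDC25C, the other CDC25 phosphatase, had the opposite sign with 43.2, 38.6 and 48.7, against 37.5 and 37.4 (0.21). CKS1B, a small CDK-binding protein, had 688, 633 and 555, against 731 and 714 (−0.21), and CDK1 had 579.9, 462 and 505, against 571 and 749.9 (−0.35). The cyclins CCNA2, CCNB1 and CCNB2 had differences of −0.51, −0.31 and −0.10, and CKS2 had −0.09. In the kinases, AURKA had 135, 170.4 and 157, against 178 and 166 (−0.17), AURKB −0.34 and NEK2 −0.05. In the spindle checkpoint, BUB3 had 467, 495 and 418, against 481 and 574 (−0.19). BUB1, BUB1B and MAD2L1 had −0.22, −0.13 and −0.26, and the kinase TTK 0.09. None of these members reached an unadjusted p below 0.05.

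Among the motors and microtubule proteins, the crosslinker PRC1 had 144, 151 and 128, against 185 and 177, without overlap (log2 difference −0.37, adjusted p 0.265). NUSAP1 had −0.31, KIF2C −0.25, KIF11 −0.20 and KIF4A −0.13, while KIF20A had 168, 200.2 and 162, against 148 and 159 (0.20). In the centromere group CENPA, the centromeric histone, had 0.11 and CENPF −0.10. In the chromosome structure group the condensin subunit SMC4 had 356, 374 and 315, against 355 and 416 (−0.14). MKI67, the proliferation marker Ki-67, had 143, 161 and 114, against 179 and 174 (−0.36). The condensin subunits NCAPG, NCAPH and SMC2 had −0.11, 0.31 and −0.18, and separase ESPL1 and UBE2C had 0.00 and −0.25.

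Between the same siRNAs by lipid the members stayed close to the luciferase arrays. The median log2 difference was −0.04, against −0.03 for all genes, and 24 of 40 members were lower (60%, against 57.1%). None passed the test (0.125% of all genes did), and 1 had an unadjusted p below 0.05 (2.5%, against 4.53% of all genes). The 1 gene was CENPE, with 72.6, 82.1 and 62.5 with AML1-ETO siRNA, against 52.6, 51.4 and 49.8 with luciferase siRNA (0.49, 95% interval 0.02 to 0.96, adjusted p 0.999). It was also the only member whose arrays did not overlap, being higher (2.5%, against 3.58% of all genes), and no member was lower without overlap (4.95% of all genes were). TPX2 had 350.0, 398 and 330.3, against 374, 409.9 and 429 (−0.17, 95% interval −0.50 to 0.16). FOXM1 had 234, 239.7 and 304, against 213, 229 and 237 (0.19, 95% interval −0.13 to 0.51), and in both genes the groups overlapped. Without AML1-ETO lipid replicate 3, the array that stood apart, the members' median was −0.13, and with another of the 6 arrays left out it lay between −0.07 and 0.02.

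The brightest genes of the other roles also overlapped by lipid. CKS1B had 544, 619.6 and 689 with AML1-ETO siRNA, against 580.4, 669 and 728 with luciferase siRNA (−0.09). AURKA had 169, 128 and 208, against 201, 199 and 188 (−0.25). BUB3 had 508, 505 and 625, against 539, 535 and 586 (−0.03). In each of these the spread within the AML1-ETO group exceeded the difference of the means. BIRC5 had 297, 263 and 329, against 262, 309 and 296 (0.03), SMC4 439.6, 456 and 526, against 456, 493 and 558 (−0.08), and PTTG1 978, 957 and 975, against 847, 894 and 1033 (0.07). Untransfected cells had 614 and 678 for CKS1B, 230.0 and 137 for AURKA, 528 and 639.7 for BUB3, and 899.5 and 878 for PTTG1.

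**Figure D3:**
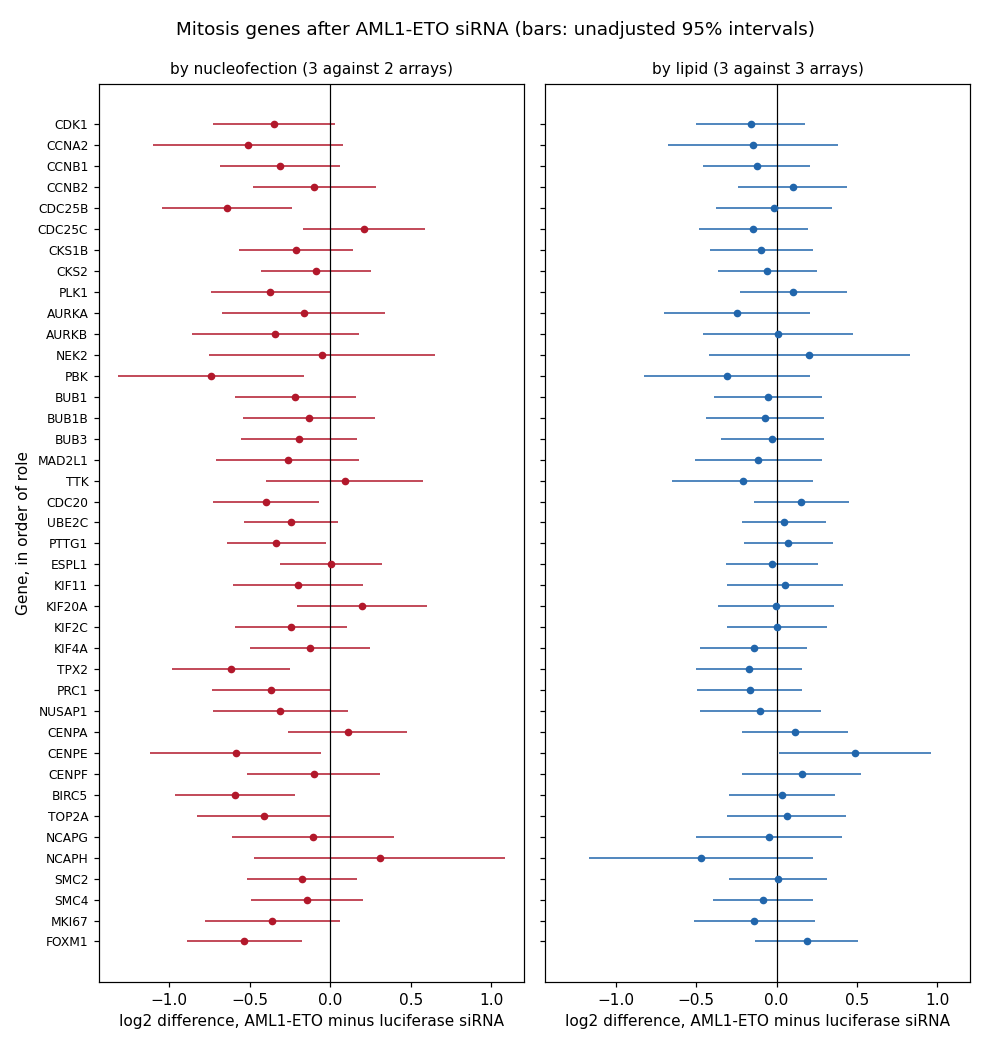
Log2 difference of AML1-ETO minus luciferase siRNA (x axis) for each tested mitosis gene (y axis, in order of role), by nucleofection (left, 3 against 2 arrays) and by lipid (right, 3 against 3 arrays), with unadjusted 95% intervals as bars. By nucleofection 34 of 40 points lie below 0, with TPX2, BIRC5 and CDC25B at −0.62, −0.59 and −0.64. By lipid the points lie around 0 and none passes the test over all genes.

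The mean of both methods gave a median of −0.13, against −0.07 for all genes, and 35 of 40 members were lower (87.5%, against 64.9%). None passed the test, against 1.66% of all genes, and 6 had an unadjusted p below 0.05, all lower (15%, against 9.39% of all genes lower). These were TPX2, PBK, CDC25B, BIRC5, PRC1 and CDK1, with TPX2 at −0.39 ± 0.11 and the smallest adjusted p of 0.123. No member was lower without overlap within both methods at once (1.38% of all genes were).

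Whether the effect differed between the methods was tested as the difference of the 2 differences, nucleofection minus lipid. Its median was −0.20 over the members, against −0.06 over all genes, and 33 of 40 members were below 0 (82.5%, against 57.3%). None passed the test (0.0557% of all genes did), and 5 had an unadjusted p below 0.05, all below 0 (12.5%, against 6.07% of all genes below 0). They were CENPE (−1.08, 95% interval −1.79 to −0.37), FOXM1 (−0.72, −1.20 to −0.24), BIRC5 (−0.63, −1.12 to −0.13), CDC25B (−0.63, −1.17 to −0.09) and CDC20 (−0.56, −1.0 to −0.11). Their adjusted p-values lay between 0.319 and 0.393 in limma, so a difference between the methods was not shown for any member. With the mean over its probe sets BIRC5 was at −0.18. Without AML1-ETO lipid replicate 3 the members' median of this difference was −0.11.

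Nucleofection against lipid, as the mean of both siRNAs, compared the delivery methods at their different doses. In the deposited scaling 7 of the 40 members were called, all lower with nucleofection (17.5%, against 22.0% of all genes called lower and 25.6% called either way), a smaller share than that of all genes. The members' median was −0.16, against −0.17 for all genes, and 28 of 40 were lower (70%, against 70.6%). In 4 members, CENPF, PRC1, SMC4 and KIF4A, the nucleofection arrays lay below the lipid arrays within each siRNA (10%, against 16.1% of all genes). The direction of the list rested on the scaling: the members' median was 0.08 after quantile normalisation and 0.01 after centring arrays on their medians. Under quantile normalisation CENPF was called lower and BUB1, CDC20, CKS1B, KIF11, SMC2 and TOP2A were called higher, and under centring CENPF and PRC1 were called lower and BUB1 and SMC2 higher. Of all genes called, 14.3% were higher in the deposited scaling, 44.1% after quantile normalisation and 46.1% after centring.

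CENPF, a large protein of the outer kinetochore and nuclear matrix, differed most. Its probe set 207828_s_at had 119, 109 and 98.3 with AML1-ETO siRNA and 111 and 123 with luciferase siRNA by nucleofection. By lipid it had 212, 275 and 229 with AML1-ETO siRNA and 251, 186 and 208 with luciferase siRNA. All 5 nucleofection arrays lay below all 6 lipid arrays, and the log2 difference was −1.0 ± 0.13 (95% interval −1.28 to −0.72, adjusted p 0.0003). It was −0.78 after quantile normalisation, −0.83 after centring and −0.33 with the mean over the gene's probe sets (adjusted p 0.0209). It was called under each of the 22 alternatives tried. The array nucleofected without siRNA gave 169, between the nucleofection arrays with siRNA and the lipid arrays. The gene's other usable probe set, 209172_s_at, was dim, with signals between 14.7 and 39.4, and gave 0.01.

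PRC1, which bundles the antiparallel microtubules of the central spindle, had 144, 151 and 128 with AML1-ETO siRNA and 185 and 177 with luciferase siRNA by nucleofection (218009_s_at). By lipid it had 209, 179 and 256 with AML1-ETO siRNA and 227, 245 and 244 with luciferase siRNA. The groups did not overlap within either siRNA. The log2 difference was −0.50 ± 0.11 (adjusted p 0.00826), and −0.32 after centring. SMC4 (201663_s_at) had 356, 374, 315, 355 and 416 by nucleofection, against 439.6, 456, 526, 456, 493 and 558 by lipid, with no overlap. The SMC4 difference was −0.41 ± 0.11 (adjusted p 0.0154), and −0.24 after centring, where it was no longer called. A second bright SMC4 probe set, 201664_at, gave −0.35.

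The other 4 called members overlapped between the methods. Their values are given in the order AML1-ETO then luciferase siRNA within each method. CDC25B (201853_s_at) had 157, 157, 108, 230.3 and 204 by nucleofection, against 211, 259, 251, 229.5, 247 and 249 by lipid (−0.47 ± 0.13, adjusted p 0.0168). TPX2 (210052_s_at) had 226, 258, 206, 304 and 405, against 350.0, 398, 330.3, 374, 409.9 and 429 (−0.42 ± 0.11, adjusted p 0.0179). In both genes the lowest values came from the AML1-ETO arrays. CCNB2 (202705_at), a B-type cyclin, had 294, 328, 275, 344 and 297 by nucleofection, against 449, 381, 460.3, 335, 418 and 457 by lipid (−0.42 ± 0.12, adjusted p 0.0214). PTTG1 had 666, 719.7, 639.8, 882 and 821, against 978, 957, 975, 847, 894 and 1033 (−0.32 ± 0.10, adjusted p 0.0278). After centring these 4 differences were −0.30, −0.25, −0.25 and −0.15, and none was called. Leaving out luciferase nucleofection replicate 1 or replicate 2 left 4 called members in place of 7.

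**Figure D4:**
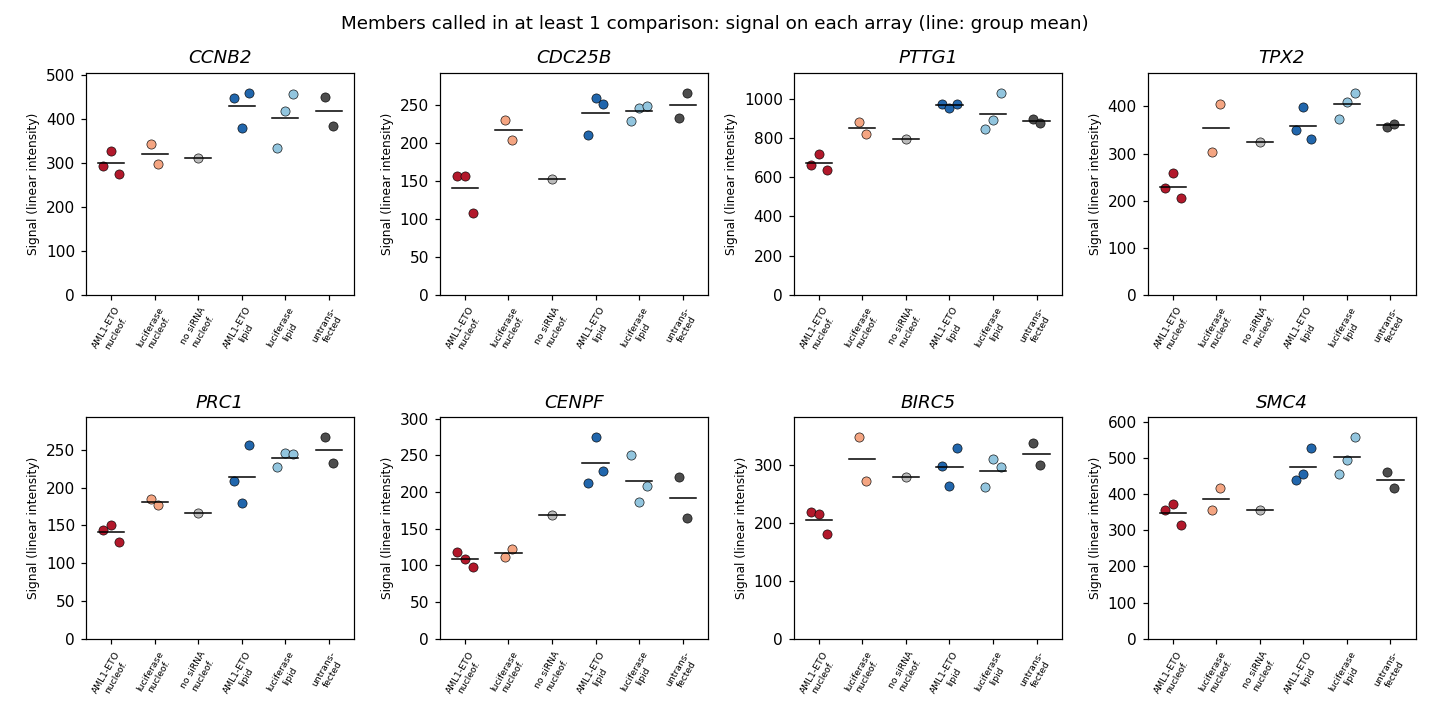
Signal (y axis, linear intensity from 0) on each array (points) for the 8 mitosis genes called in at least 1 comparison, by group (x axis), with group means as lines. CENPF lies between 98.3 and 123 on all 5 nucleofection arrays with siRNA and between 186 and 275 on the lipid arrays, while TPX2 and BIRC5 are lowest on the 3 AML1-ETO nucleofection arrays.

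AML1-ETO siRNA by nucleofection against untransfected cells combined the siRNA and the method. Of 40 members 36 had a lower mean (90%, against 67.0% of all genes), and the median was −0.24, against −0.17 for all genes. The test called 5 members lower (12.5%, against 6.42% of all genes called lower and 8.15% either way) and none higher. They were PRC1, CDC25B, CENPF, TPX2 and BIRC5. At an unadjusted p below 0.05 there were 12 members, all lower (30%, against 20.5% of all genes lower). In 16 members all AML1-ETO arrays lay below both untransfected arrays (40%, against 33.4% of all genes). In SMC2 alone they all lay above both.

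PRC1 had 144, 151 and 128 with AML1-ETO siRNA by nucleofection, against 267 and 232 in untransfected cells (log2 difference −0.83 ± 0.17, adjusted p 0.0133). CDC25B had 157, 157 and 108, against 233 and 266 (−0.85 ± 0.19, adjusted p 0.0183). CENPF had 119, 109 and 98.3, against 221 and 164 (−0.81 ± 0.19, adjusted p 0.0235). In these 3 genes the highest AML1-ETO array was below the lower untransfected one. TPX2 had 226, 258 and 206, against 357 and 363 (−0.65 ± 0.17, adjusted p 0.0358). BIRC5 (202095_s_at) had 219, 214 and 181, against 337 and 299.9 (−0.64 ± 0.17, adjusted p 0.0397). None of the 5 overlapped with the untransfected arrays. BIRC5 was called by this probe set alone, since its other usable probe sets, 210334_x_at and 202094_at, gave 0.31 and 0.13. With the mean over probe sets BIRC5 was at −0.07 (adjusted p 0.814) and CENPF at −0.29 (adjusted p 0.199), and neither was called. The other usable CENPF probe set, 209172_s_at, gave −0.07.

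The baseline of this comparison was 2 arrays, and its calls depended on both. Leaving out untransfected replicate 1 gave 0 called members, leaving out replicate 3 gave 1, leaving out AML1-ETO nucleofection replicate 3 gave 2, and leaving out its replicate 1 or luciferase lipid replicate 2 gave 3. Fitting the 5 arrays of these groups alone gave 0. The median over all genes was −0.01 after centring, where the 5 differences were −0.67 for PRC1, −0.69 for CDC25B, −0.66 for CENPF, −0.50 for TPX2 and −0.49 for BIRC5. PRC1 and CDC25B were called there, and PRC1 was called after quantile normalisation. Of all genes called, 21.2% were higher in the deposited scaling, 50.7% after quantile normalisation and 46.1% after centring.

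The other 3 transfected groups were set against the same untransfected arrays, so these comparisons share them. AML1-ETO siRNA by lipid gave a median of −0.02 over the members, against 0.04 over all genes, and −0.13 without AML1-ETO lipid replicate 3. None was called (0.111% of all genes were), none had an unadjusted p below 0.05 (5.84% of all genes had), and the smallest adjusted p was 0.853. Luciferase siRNA by nucleofection gave −0.05, against −0.06. None was called (5.14% of all genes were), and 3 had an unadjusted p below 0.05 (7.5%, against 23.2% of all genes). CENPF had 111 and 123, against 221 and 164 (−0.71, adjusted p 0.0695), PRC1 185 and 177, against 267 and 232 (−0.46, adjusted p 0.161), and MKI67 179 and 174, against 105 and 136 (0.56, adjusted p 0.138). None of these 3 overlapped between the groups, which adds little with 2 arrays in each group.

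Luciferase siRNA by lipid gave a median of 0.03 over the members, against 0.07 over all genes. No member was called, as no gene was (0%), and 2 had an unadjusted p below 0.05 (5%, against 3.72% of all genes). MKI67 had 154, 168 and 210.0 with luciferase siRNA, against 105 and 136 in untransfected cells (0.55), and CENPE had 52.6, 51.4 and 49.8, against 83.7 and 68.0 (−0.56). CENPE with AML1-ETO siRNA by lipid, at 72.6, 82.1 and 62.5, overlapped with the untransfected arrays (−0.07).

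**Figure D5:**
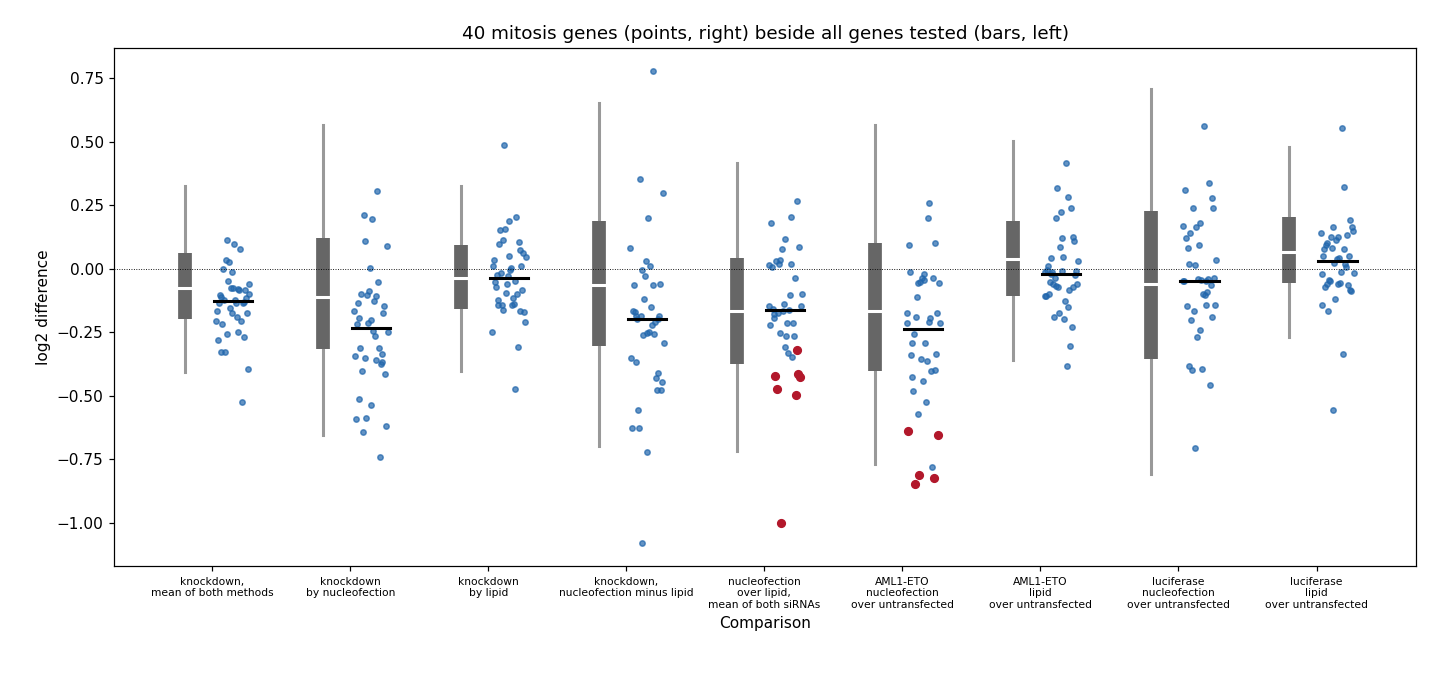
Log2 differences (y axis) in the 9 comparisons (x axis) for the 40 tested mitosis genes (points, with called genes larger and in red and the median as a black line) beside all 7178 genes tested (bars from the 25th to the 75th percentile, thin lines from the 5th to the 95th, median in white). The members' median lies furthest below that of all genes for the knockdown by nucleofection and for its difference from lipid, and at that of all genes for nucleofection over lipid.

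Other probe sets gave a check on the choice of the brightest. Of the 72 probe sets with a member as their only symbol, 22 others of 15 genes were bright enough to compare. By nucleofection, 17 of the 22 had the sign of the gene's main probe set for AML1-ETO against luciferase siRNA, with a median of −0.19. This was the highest count of any comparison. It was 15 for AML1-ETO siRNA by nucleofection over untransfected cells and 14 for nucleofection over lipid, where members were called. The lowest was 10, for luciferase siRNA by nucleofection over untransfected cells. As 63.2% of all genes were below 0 for AML1-ETO against luciferase siRNA by nucleofection, many signs would match there in any case. All 3 CDK1 probe sets were below 0, at −0.35, −0.38 and −0.45. Disagreement was clearest in BUB3, a checkpoint protein, where 201458_s_at gave 0.66 and the brightest, 201457_x_at, −0.19. BUB1 disagreed too, as 215509_s_at gave 0.59, from 35.5, 37.2 and 29.2, against 25.1 and 12.8. This dim BUB1 probe set was the only other one called for nucleofection over lipid (−1.0, adjusted p 0.00199 over all probe sets), whereas the brightest, 209642_at, gave 0.18 there.

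Other genes of the cell cycle were read from lists drawn up beside the members. For AML1-ETO against luciferase siRNA by nucleofection, the 47 other tested mitosis genes had a median log2 difference of −0.22, with 37 below 0 (78.7%, against 63.2% of all genes). Of them 1 was called lower (2.13%, against 0.989%) and 1 called higher (2.13%, against 1.63%). CCNF, an F-box protein of G2, had −0.88 (adjusted p 0.0295) and the kinesin KIF18A 1.07 (adjusted p 0.0490). Of 11 subunits and cofactors of the anaphase-promoting complex, 7 were below 0 (63.6%, against 63.2% of all genes), with a median of −0.31. The test called 2 of them lower (18.2%, against 0.989% of all genes). These were UBE2S, its chain-elongating enzyme (−0.98, adjusted p 0.0202), and FZR1, its activator in late mitosis and G1 (−0.88, adjusted p 0.0230). In that list 2 were called lower under quantile normalisation and under centring as well. By lipid 6 of the 11 were below 0 (54.5%, against 57.1% of all genes), the median was −0.02 and 0 were called. FZR1 also passed for the mean of both methods (−0.57, adjusted p 0.0315), as 1 of the 11 (9.09%, against 0.515% of all genes called lower). Among 38 S phase genes, 32 were below 0 (84.2%, against 63.2% of all genes) with a median of −0.22. Of these only CCNE2, a G1/S cyclin, was called lower (−0.72, adjusted p 0.0371), which makes 2.63%, against 0.989% of all genes. After centring, 0 of the 47 and 0 of the 38 were called lower.

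None of 13 transcription regulators of the cell cycle, 3 CDK inhibitors and 8 tubulins was called in that comparison. For AML1-ETO siRNA by nucleofection over untransfected cells, MYBL2, the B-MYB that acts on CHR elements, was lower (−0.82, adjusted p 0.0428) in the deposited scaling, where 1 of 13 regulators was called (7.69%, against 6.42% of all genes called lower). After quantile normalisation or centring, 0 of 13 regulators were called. The CDK inhibitor gene CDKN2A was lower in the same comparison (−1.56, adjusted p 0.000882), as 1 of 3 inhibitors tested (33.3%, against 6.42% of all genes). It was also lower for nucleofection over lipid (−1.11, adjusted p 0.000203), again 1 of 3 (33.3%, against 22.0%). With luciferase siRNA by nucleofection over untransfected cells 1 of these 3 inhibitors was called lower too (33.3%, against 3.90% of all genes). For nucleofection over lipid 6 of the 47 other mitosis genes were called lower (12.8%, against 22.0% of all genes) and 2 higher (4.26%, against 3.68%). After quantile normalisation 1 was called lower and 5 higher, and after centring 3 lower and 5 higher.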

How the data were processed

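RNA of 14 arrays in 6 groups was compared, grouped by the construct, method and replicate in the labels. The deposited table held 1 linear intensity per probe set, which the authors computed by MAS5 (a summary of a probe set's perfect-match and mismatch probes), per the submitters' processing notes. Neither its settings nor its version is given in the sources used here. A scale factor between 0.488 and 1.56 was applied to each array, per the labels, and each deposited array had a mean intensity of 138.5.

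Of 22283 probe sets, 19065 had 1 symbol in the platform annotation. Intensities under 20 were raised to 20, which affected 38.4% to 44.3% of the probe sets of an array, and log2 was taken. Differences of dim genes are therefore understated. The brightest single-symbol probe set stood for each gene, and the upper 60% of genes by mean, down to a mean signal of 26.6, were kept. In R 4.3.3, limma 3.58.1 (lmFit, eBayes) was fitted to 6 group means over all 14 arrays, with 8 residual and 4.65 prior degrees of freedom, and tested on simulated data first. A Benjamini-Hochberg adjusted p over the 7178 genes of less than 0.05 made a call. The number of arrays limits the precision. Intervals are unadjusted 95% intervals.

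The members and the lists were chosen with earlier results of these data known, and list counts are given beside those of all genes. Named with array values were the called members of each comparison, those with the smallest p, and the brightest of each role, and for other lists up to 4 genes with the smallest p. Alternatives changed the scaling, floor, filter, probe sets, variance model and arrays, added the replicate number as a block, and left out each array. Promoters were searched and figures made with Python 3.11.15, using matplotlib 3.10.9, numpy 2.4.6 and pandas 2.3.3.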

Additional observations from a re-analysis of the deposited data

How the results depend on the processing

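Each result was recomputed under 22 alternatives, of which 14 left out 1 array. The 34 member results followed here were calls, or, for AML1-ETO against luciferase siRNA, members with an unadjusted p below 0.05. They were picked for a small p, so a kept direction was likely in advance. All 748 recomputed values kept their direction. Of them 681 also kept their side of the threshold, 58 lost a call and 9 gained one. For the knockdown as the mean of both methods, the variance model with a trend called 1 member in place of 0, TPX2 (adjusted p 0.0455). By nucleofection a floor of 64 called 4 members, no filter 1 and the trend 3, all lower, and leaving out an array called 0. By lipid, and for the difference between the methods, 0 were called under every alternative. For nucleofection over lipid, 4 members in place of 7 were called with centred arrays, and 4 to 9 when an array was left out. The members' median was 0.0795 with quantile normalisation and 0.00932 with centring, against −0.16. For AML1-ETO siRNA by nucleofection over untransfected cells, 1 member in place of 5 was called with quantile normalisation, 2 with centring, 8 with a floor of 64, 3 with the mean over a gene's probe sets and 0 with the arrays of the 2 groups alone. Leaving out an array gave 0 to 7 there, with 0 and 1 without untransfected replicates 1 and 3, 2 without AML1-ETO nucleofection replicate 3, and 3 without its replicate 1 or without luciferase lipid replicate 2. The median there was −0.0319 with quantile normalisation and −0.0841 with centring. For AML1-ETO siRNA by lipid over untransfected cells the median was −0.13 without AML1-ETO lipid replicate 3, and −0.13 to 0.0419 over the arrays left out. For luciferase siRNA by nucleofection over untransfected cells 1 member was called with a floor of 64 and 1 with the trend, and the median was 0.13 with quantile normalisation. The scalings and the arrays left out show by construction what was changed. Any further cause was not tested.

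Counts over all genes moved more. The knockdown as the mean called 119 genes, 59 to 119 with an array left out and 73 to 187 otherwise. By nucleofection it called 188, 52 to 239 and 23 to 374, and by lipid 9, 4 to 12 and 5 to 11. The difference between the methods called 4, 1 to 8 and 2 to 30. Nucleofection over lipid called 1841, 1171 to 1841 and 1131 to 2096. AML1-ETO siRNA by nucleofection over untransfected cells called 585, 102 to 728 and 187 to 869, the same siRNA by lipid 8, 2 to 9 and 0 to 12, and luciferase siRNA by nucleofection 369, 56 to 432 and 0 to 563.

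Over 22 same-numbered pairs of arrays the correlation of deviations from the group means lay between −0.29 and 0.05. With so few arrays in a group, this cannot show whether same-numbered arrays shared a culture. With the numbers as a block 2 of 34 member results changed their call, PTTG1 for nucleofection over lipid (adjusted p 0.0603) and BIRC5 for AML1-ETO siRNA by nucleofection over untransfected cells (adjusted p 0.0920). With the block the knockdown as the mean called 73 genes, against 119 without it, and by nucleofection 108, against 188. AML1-ETO siRNA by nucleofection over untransfected cells called 312 with the block, against 585. Signals near the floor of 20 limit KIF23 and INCENP, for which no difference was tested.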
